A study of Mus musculus with 6 samples.

Results

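Gfi1, Gfi1b and 4 genes of the BTB zinc finger family, Zbtb32, Zbtb7a, Zbtb7b and Zbtb16, encode transcriptional repressors of blood and lymphoid cells. They were followed across 6 arrays of mouse T cells. The 6 genes are represented by 12 of the 45037 probe sets tested, and were taken by exact gene symbol in the platform annotation. As single genes they are 6 of 18193. They were chosen with the comparison of E47 and control arrays already known, so their values in that comparison are a description and carry no test.

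In 3 samples CD4 T cells carried the retrovirus pMIT-E47-ER, and 3 control samples carried pMIT-bHLH-ER. E47 is a basic helix-loop-helix protein made from Tcf3 that binds E-box sites, here joined to an estrogen receptor (ER) domain that holds it out of the nucleus until tamoxifen is given. The make-up of the bHLH-ER control construct was not stated in the labels. All samples began as CD4+CD25- cells of C57BL/6 lymph nodes, grown for 2 days on anti-CD3 (2 µg/ml) and anti-CD28 (1 µg/ml) with 200 U/ml of IL-2 and 5 ng/ml of TGF-β1, conditions that favour regulatory T cells (Treg cells), with virus added on day 1. Sorted CD4+Thy1.1+ cells of both groups then spent 6 hours with the antibodies, IL-2 and 1 µM tamoxifen, so no sample without tamoxifen was compared. Each of 3 experiments gave 1 E47 and 1 control sample, with mice aged 7, 8 and 9 weeks and with cells of 3, 3 and 4 mice combined in a sample.

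GFI1 and its close relative GFI1B bind DNA through zinc fingers and recruit histone-modifying corepressors through a short N-terminal SNAG domain. GFI1 acts in lymphocyte and granulocyte development and GFI1B mainly in red cells and platelets, and both can repress their own genes. BTB zinc finger proteins pair through the BTB domain, which also contacts corepressors. ZBTB7B (ThPOK) fixes the CD4 helper fate in the thymus, ZBTB16 (PLZF) directs innate-like T cells such as NKT cells, ZBTB7A (LRF) restrains alternative fates in several blood lineages, and ZBTB32 (repressor of GATA) is induced in activated T cells and limits cytokine genes.

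The promoters of Gfi1 and Zbtb32 are shown because these were the members that differed most between E47 and control. Each runs from 250 bases before to 50 bases after a RefSeq transcription start (GRCm38.p6), both on the minus strand. Where several starts were listed, the one farthest upstream was taken. Capitals mark E-boxes, searched as CANNTG, and no binding was measured in this study.
Gfi1, chr5:107725756-107726055: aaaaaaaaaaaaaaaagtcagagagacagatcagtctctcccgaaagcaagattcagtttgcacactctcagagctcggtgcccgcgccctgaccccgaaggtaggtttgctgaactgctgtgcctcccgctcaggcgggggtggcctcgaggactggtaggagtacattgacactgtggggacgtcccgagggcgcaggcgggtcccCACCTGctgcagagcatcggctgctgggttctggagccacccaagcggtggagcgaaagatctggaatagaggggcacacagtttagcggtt
Zbtb32, chr7:30598860-30599159: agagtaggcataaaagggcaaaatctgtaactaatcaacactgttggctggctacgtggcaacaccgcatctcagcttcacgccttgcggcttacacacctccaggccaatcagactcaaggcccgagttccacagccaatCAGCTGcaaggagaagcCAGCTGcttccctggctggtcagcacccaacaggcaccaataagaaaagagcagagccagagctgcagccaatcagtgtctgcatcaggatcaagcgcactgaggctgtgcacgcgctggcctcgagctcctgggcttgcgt

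The Gfi1 stretch held 1 E-box, CACCTG, beginning 42 bases before the start. Both E-boxes of the Zbtb32 stretch were CAGCTG, and they began 109 and 92 bases before the start. CANNTG, which reads the same on both strands, occurred in 72.3% of the 32851 RefSeq promoters of this length. The narrower form CAGCTG, also its own reverse complement and contained in CANNTG, occurred in 16.3% of them, and CAGGTG or its reverse complement CACCTG, likewise contained in CANNTG, in 20.2%. The GFI1 core AATC, or GATT on the other strand, was found once in the Gfi1 stretch and at 5 places in the Zbtb32 stretch, 1 of which overlaps the E-box beginning at 109 bases by a single base. It occurred in 73.1% of all promoters. RefSeq promoters were matched for 5 of the 6 genes, 8 stretches in all, of which that of Zbtb7a held neither CANNTG nor AATC. The other listed stretch of Gfi1 and that of Zbtb32 held no GFI1 core and 1 E-box each. Both were CAAGTG, 156 bases before the start for Gfi1 and 192 for Zbtb32. The farthest upstream Zbtb7b stretch held CAGGTG 238 bases before its start and CATATG 133 bases before it. The single Gfi1b stretch held CAAATG at 180 and 113 bases before its start and 4 copies of the GFI1 core.

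Gfi1, the SNAG-domain repressor of lymphoid and myeloid cells, was higher in E47 samples of every experiment. Its probe set read 6.80, 8.73 and 7.33 in E47 samples of experiments 1, 2 and 3, against 5.64, 7.26 and 5.54 in the control samples, all as log2 intensity. The groups overlapped, because the control sample of experiment 2 lay above the E47 sample of experiment 1. Within experiments the E47 level exceeded control by 1.16, 1.47 and 1.79 log2 units. The mean difference was 1.47 (SE 0.13 in a fit over all probe sets with the experiment as a term), a 2.77-fold higher level. The control samples of experiments 1 and 3 lay near their array medians of 5.11 and 5.13, and detection above background could not be tested. Adding 16 to the intensities before taking logs lowered the mean difference to 1.27.

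Zbtb32, the activation-induced repressor, differed in the other direction. Its bright probe set, 1432459_a_at, had log2 levels of 8.29, 7.80 and 8.58 in E47 samples, against 9.37, 8.79 and 9.64 in control samples of experiments 1 to 3. The groups did not overlap. The 3 differences, -1.09, -0.99 and -1.06, had an SD of 0.05, and their mean of -1.04 (SE 0.08) corresponds to 0.486 times the control level. A second Zbtb32 probe set, 1447330_at, lay below the array median on all 6 arrays. It read 3.65, 3.89 and 3.51 in E47 and 3.68, 3.84 and 3.84 in control samples, with a mean difference of -0.10 (SE 0.11), so the lower Zbtb32 level was seen in 1 of its 2 probe sets. Averaged over both probe sets, the difference was -0.57.

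In limma's paired fit over all genes, 2 of the 6 members, Gfi1 and Zbtb32, were past an adjusted p of 0.05, where 1.14% of all genes were. Nothing is drawn from that count, since the members were chosen on this contrast. In the fit over probe sets the same 2 of 12 were past it, against 0.271% of all probe sets. Without the pairing neither member passed over genes, where 0.247% of genes did. Without experiment 3 the call of Zbtb32 was lost and that of Gfi1 kept.

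**Figure D1:**
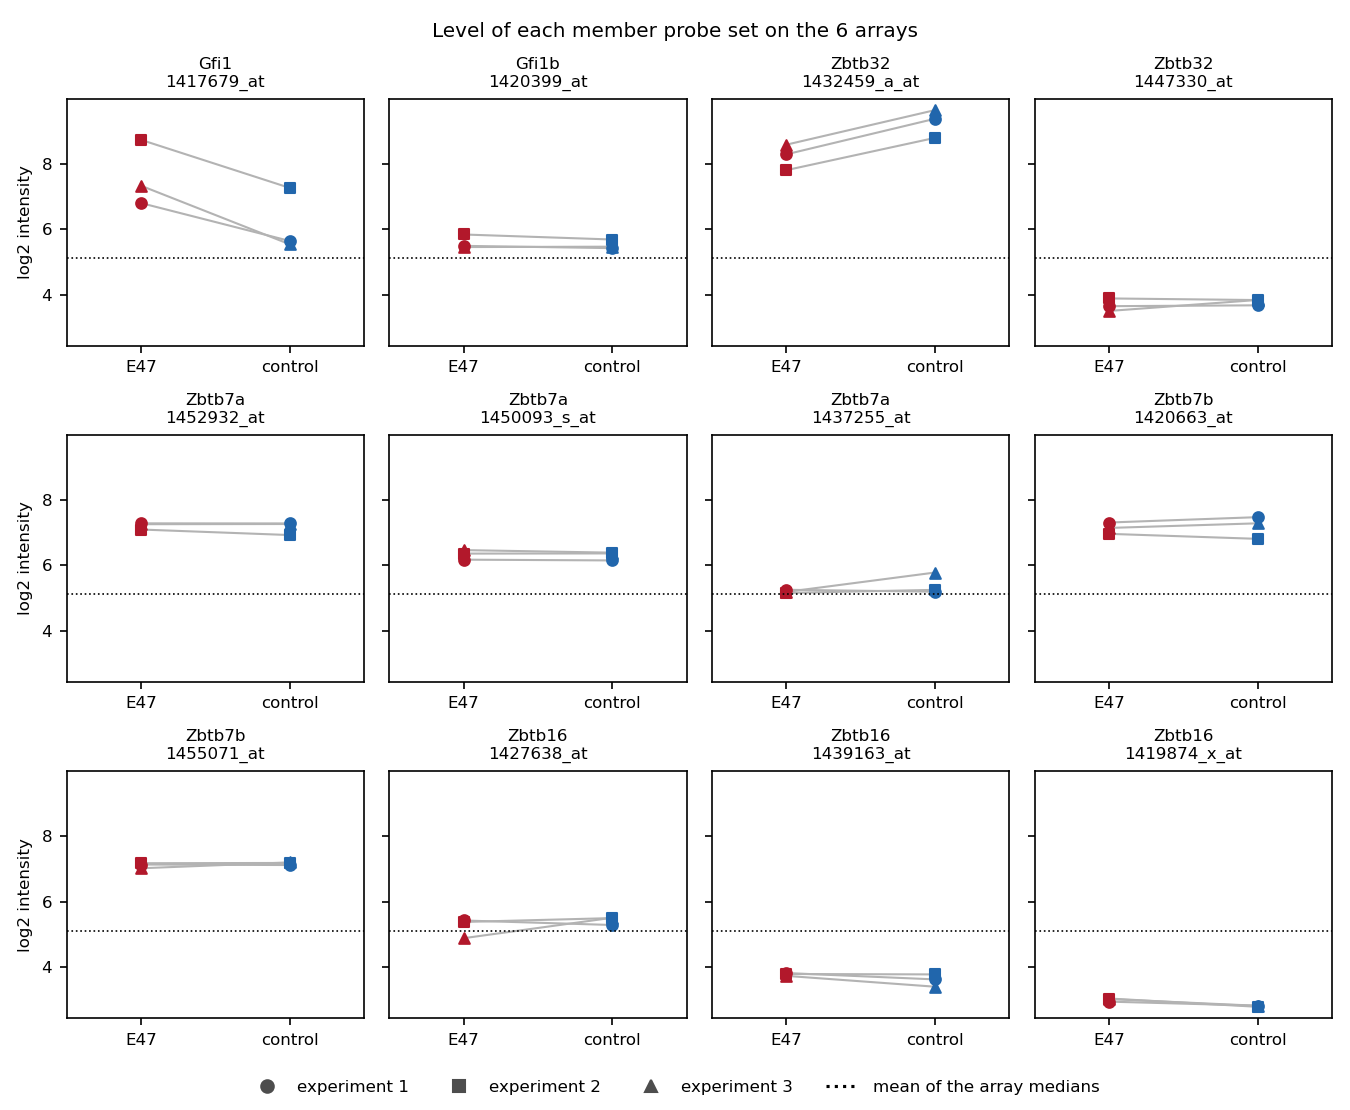
Log2 intensity (vertical axis) of each of the 12 probe sets in E47 (left, red) and control (right, blue) samples, with lines joining samples of 1 experiment and a dotted line at the mean of the array medians. Gfi1 was higher in E47 in all 3 experiments, the bright Zbtb32 probe set was lower in all 3, and 3 probe sets lay below the dotted line on every array.

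Gfi1b, the red cell and platelet relative of Gfi1, had log2 levels of 5.49, 5.84 and 5.46 in E47 samples and 5.42, 5.69 and 5.47 in control samples. The groups overlapped, and the mean difference of 0.07 was no larger than its SE of 0.08. Each of its values lay less than 1 log2 unit above the median of its array, which ran from 5.10 to 5.14. Detection above background could not be tested, because the deposited table holds no detection calls. Erythroid and megakaryocyte markers were near or below the array median too, with 1 of 4 measured, Itga2b, clearly above it.

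Zbtb7b, which encodes the CD4 fate factor ThPOK, differed little between the groups. Its probe set 1420663_at read 7.31, 6.97 and 7.15 in E47 and 7.47, 6.81 and 7.29 in control samples, with a mean difference of -0.05 (SE 0.10). The other, 1455071_at, read 7.13, 7.17 and 7.02 in E47 and 7.12, 7.18 and 7.20 in control samples, with a mean difference of -0.06 (SE 0.09). In both the groups overlapped and the sign changed between experiments. The range over the 6 arrays was 0.66 log2 units in the first probe set and 0.18 in the second.

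Zbtb7a, which encodes LRF, had 3 probe sets, all above the median of each array. The one with the highest signal, 1452932_at, read 7.29, 7.10 and 7.26 in E47 and 7.28, 6.93 and 7.27 in control samples (mean difference 0.06, SE 0.09). Probe set 1450093_s_at had a mean difference of 0.03 (SE 0.08). Probe set 1437255_at had one of -0.21 (SE 0.14), which came mainly from experiment 3, where E47 was lower by 0.59. E47 and control samples overlapped in all 3.

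Zbtb16, the gene of PLZF, had 3 probe sets, of which only the brightest, 1427638_at, lay above the array median, on 5 of 6 arrays. It read 5.43, 5.38 and 4.89 in E47 and 5.29, 5.50 and 5.51 in control samples, with differences of 0.14, -0.12 and -0.62. The other 2 lay below the median on all arrays and were slightly higher in E47 in each experiment, by 0.18 (SE 0.10) and 0.19 (SE 0.08) on average. For 1419874_x_at the groups did not overlap, with 2.95, 3.05 and 3.03 in E47 and 2.83, 2.79 and 2.82 in control samples. Adding 16 to the intensities before taking logs reduced that difference to 0.06. Across the 12 probe sets, 2 had groups that did not overlap, against 11.2% of all probe sets.

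**Figure D2:**
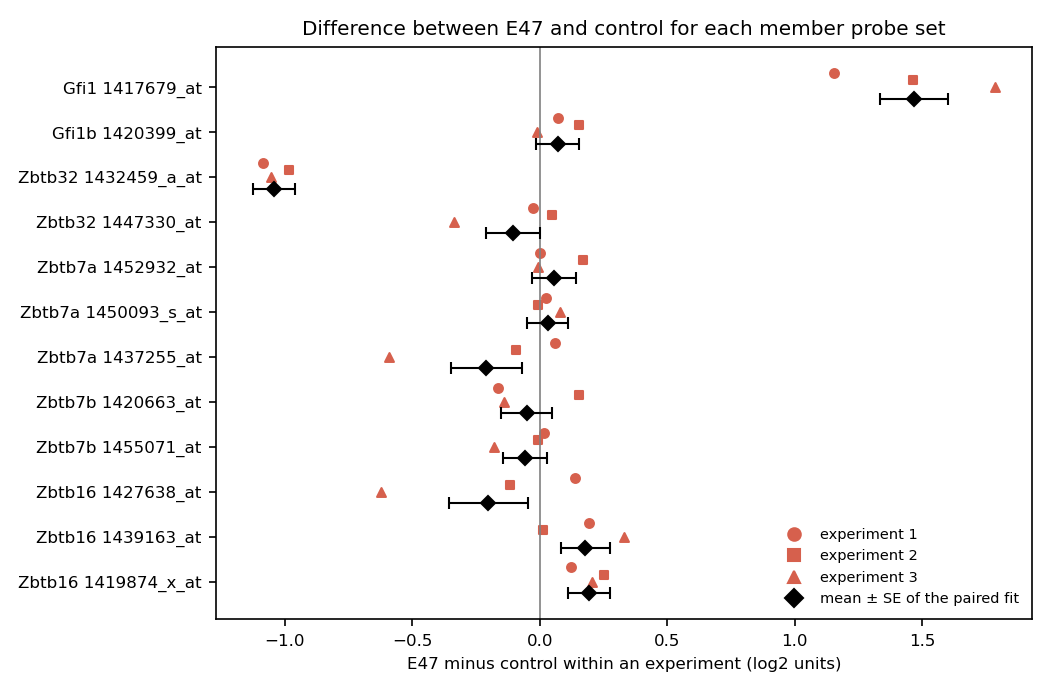
Difference in log2 intensity, E47 minus control (horizontal axis), for each probe set (rows), with 1 symbol per experiment and a black diamond for the mean with the SE of the paired fit. The 3 differences of Gfi1 lay between 1.16 and 1.79, those of the bright Zbtb32 probe set between -1.09 and -0.99, and each of the other 10 means lay between -0.21 and 0.19.

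Differences between the experiments were tested separately, with an F test of the experiment in the paired fit. This test compares the experiments with each other, a contrast other than E47 against control, on which the members were chosen. Both tests share the residual variance of each gene and are not independent, so the count of members passing is a description. Gfi1 differed between experiments (adjusted p = 0.00738 in limma), being highest in experiment 2 in both groups. The E47 sample of experiment 2 exceeded the mean of the other two E47 samples by 1.66 log2 units, and among control samples the excess was 1.67. For Gfi1 the step between experiments was thus similar in size to the difference between E47 and control.

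Zbtb32 also differed between experiments (adjusted p = 0.0201) and was lowest in experiment 2, by 0.63 log2 units among E47 samples and 0.71 among control samples. The adjusted p was 0.142 for Zbtb7b, 0.223 for Gfi1b, 0.302 for Zbtb7a and 0.707 for Zbtb16. Thus 2 of 6 members passed, where 3.20% of all genes did. These tests used the brightest probe set of each gene. The dim Zbtb32 probe set was not lowest in experiment 2 but 0.19 log2 units above the mean of the others, and Zbtb7b probe set 1455071_at was 0.06 above it, where 1420663_at differed from it by -0.42. With the mean over probe sets the adjusted p was 0.268 for Zbtb32 and 0.449 for Zbtb7b, and among genes brighter than the median Zbtb7b passed (0.0451). Experiment 2 carried these calls: without it the adjusted p was 0.888 for Gfi1 and 0.738 for Zbtb32. Without experiment 3 it was 0.0834 for Zbtb32. Over probe sets in place of genes, the adjusted p was 0.0287 for Gfi1 and 0.0684 for Zbtb32, and 0.604% of all probe sets passed.

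Foxp3, the lineage factor of Treg cells, was also highest in experiment 2, with log2 levels of 6.36, 7.83 and 6.07 in E47 and 6.42, 8.16 and 6.29 in control samples of experiments 1 to 3 (F test of the experiment in limma, adjusted p = 0.00262). Between E47 and control it did not pass (log2 fold change -0.20, SE 0.09, adjusted p = 0.427). The other 3 Treg markers did not pass the F test of the experiment (adjusted p = 0.126 for Ctla4, 0.151 for Il2ra and 0.899 for Ikzf2), and Ctla4 was lowest in experiment 2 (11.13 in E47 and 11.33 in control). The summed intensity of the 4 Treg markers was 5008 in E47 and 6091 in control samples of experiment 2, against 5712 and 5953 in the other E47 samples and 6129 and 5872 in the other control samples. Some markers of other lymphocytes moved with the experiments as well, although the cells had been sorted as CD4+Thy1.1+ after starting as CD4+CD25-, a gate meant to leave such cells out. Klrd1, an NK cell receptor gene, read 8.35 in E47 and 8.79 in control samples of experiment 2, and at most 7.21 in the other samples (adjusted p = 0.0108). Ncr1, the other NK marker measured, lay below the array median throughout, with 3.70 in E47 and 3.80 in control samples of experiment 2 and 3.74 to 3.89 in the rest (adjusted p = 0.859). The summed intensity of the 2 CD8 markers was 327 in E47 and 209 in control samples of experiment 2, against 189 to 192 in the other E47 samples and 140 to 178 in the other control samples. Of these, Cd8a passed the F test (adjusted p = 0.0289) and Cd8b1 did not (0.293). The summed intensity of the 4 B cell markers measured was 141 in E47 and 153 in control samples of experiment 2. It was 111 to 116 in the other E47 samples and 122 to 130 in the other control samples. Mean log2 levels of Cd79a, Ms4a1, Cd79b and Pax5 were 4.50, 4.98, 5.14 and 5.23, near or below the array medians of 5.10 to 5.14. Whether B cells were present was not tested. Of the 4, only Ms4a1 passed the F test. Ms4a1 and Cd79b were highest in experiment 2 in both groups, and Cd79a in control samples only. Pax5 was lowest there among control samples (5.05, against 5.40 and 5.46). In E47 samples Pax5 read 5.15 in experiment 2, between 5.22 and 5.06 in the others. The part of any such cells in the Gfi1 and Zbtb32 levels was not tested, and in such bulk samples a change in cell number and in RNA per cell cannot be told apart. Age of the mice differed between all 3 experiments and cannot be told apart from them, while the number pooled was the same, 3 mice, in experiments 1 and 2.

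**Figure D3:**
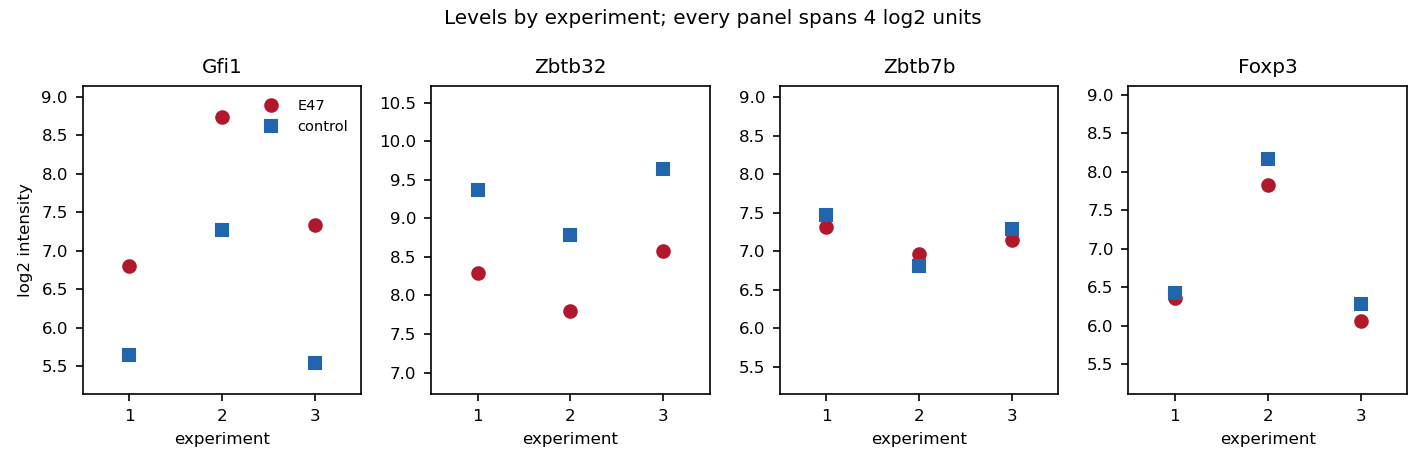
Log2 intensity (vertical axis, 4 log2 units in every panel) of Gfi1, Zbtb32, Zbtb7b and Foxp3 by experiment (horizontal axis), with E47 as red circles and control as blue squares. Gfi1 and Foxp3 were highest and Zbtb32 lowest in experiment 2 in both groups, and the plotted Zbtb7b probe set, 1420663_at, was lowest there with a smaller step, which 1455071_at did not show.

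The labelled cell type was checked against markers. All 5 T cell markers and all 4 Treg markers had means above the array median. Among markers of other cells this held for 2 of 4 B cell, 2 of 5 myeloid, 1 of 2 NK and 2 of 2 CD8 markers. In limma's paired fit 0 of the markers measured passed the E47 comparison, with 2 higher and 3 lower at an unadjusted p under 0.05. How many of all genes lay under that p in this fit was not counted, so nothing is drawn from the unadjusted counts. Tcf3, the gene from which E47 is made, had log2 levels of 8.95, 8.81 and 8.97 in E47 and 8.91, 8.94 and 8.91 in control samples (log2 fold change -0.01, SE 0.08, adjusted p = 0.961). Median centring, the mean over its probe sets and the fit without experiment 2 turned its sign. Whether its probe sets lie in the cloned part was not analysed here, so they may check nothing.

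Other genes linked to the members came from 7 lists, chosen with earlier results of these data known. Their values came from limma's paired fit over all genes. Because of that choice, the counts of list genes passing are a description. Of 103 such genes measured, 3 rose and 3 fell, where 1.14% of all genes passed. Their median log2 fold change was -0.0245, against -0.025 over all genes. Without experiment 3 only 1, Id2, passed and none fell, with 9 higher and 10 lower at an unadjusted p under 0.05. Of all 18193 genes, 657 were higher and 794 lower at that p in the same fit. Without experiment 2 there were 2 rises, Id2 and Il4, and 0 falls, with 7 higher and 7 lower at that unadjusted p. Over all genes that fit had 571 higher and 564 lower.

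None of the 40 other BTB zinc finger genes passed, and their median was -0.01. At an unadjusted p under 0.05, 2 were higher and 0 lower. Zbtb18, a repressor best known from neurons, had log2 levels of 10.05, 10.75 and 10.13 in E47 and 9.92, 10.06 and 9.45 in control samples (log2 fold change 0.50, SE 0.13, adjusted p = 0.212). It passed with an intensity trend (0.0219) and without experiment 1 (0.0281). Zbtb8a (0.25, adjusted p = 0.379) and Zbtb46, a factor of classical dendritic cells (-0.20, adjusted p = 0.423), came next. Bcl6, the repressor that directs follicular helper T cells, stood at -0.25 (SE 0.12, adjusted p = 0.477), and was named after its value was seen. It was the lowest of the 40, and Zbtb20 the highest, at 0.51 (SE 0.22).

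The corepressors and the other SNAG-domain factors gave no call in limma. Among 14 corepressor genes, log2 fold changes ran from -0.13 for Rcor2 to 0.11 for Runx1t1, and none was under an unadjusted p of 0.05. The histone demethylase gene Kdm1a, whose product binds the SNAG domain, stood at -0.02. Among 7 SNAG-domain genes, 2 were higher and 1 lower at that unadjusted p, from which nothing is drawn. Snai3, a Snail family gene, had log2 levels of 6.62, 7.51 and 6.63 in E47 and 6.31, 6.56 and 6.29 in control samples (log2 fold change 0.53, SE 0.14, adjusted p = 0.222). Its lowest E47 sample lay just above its highest control sample. Snai1 (0.26) and Insm2 (-0.46) lay below the median on all arrays, and Insm2 passed without experiment 1 (adjusted p = 0.0308). The other 2 Insm2 probe sets differed the other way, by 0.02 and 0.17. With the mean over probe sets Insm2 stood at -0.09 (adjusted p = 0.769).

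Of 17 genes known as targets repressed by GFI1, 2 rose and 1 fell, where 142 of all 18193 genes rose and 66 fell. Id2, which encodes an inhibitor of E proteins, had log2 levels of 12.08, 12.46 and 12.23 in E47 and 9.93, 9.48 and 9.43 in control samples (log2 fold change 2.64, SE 0.16, adjusted p = 0.00145). Id1, another such inhibitor, rose by 1.06 (SE 0.12, adjusted p = 0.017). Like Gfi1, both were higher in E47 than in control in all 3 experiments. Egr2, an early response factor of T cell stimulation, fell by 0.69 (SE 0.08, adjusted p = 0.0161). The Id1 and Egr2 calls were lost without experiment 2 (adjusted p = 0.0552 and 0.107), without experiment 3 (0.0814 and 0.122) and without the pairing (0.118 and 0.302). Il7r, the IL-7 receptor chain, stood at 0.61 (adjusted p = 0.125, and 0.0132 to 0.0481 among brighter genes, with the mean over probe sets, with an intensity trend and without experiment 1), Ets1 at 0.19 and Egr1 at 0.25. Cdkn1a, the cell cycle inhibitor p21, stood at 0.10 (adjusted p = 0.725).

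Il4 was the 1 gene to pass among 6 genes set around ZBTB32, which is known to limit GATA3-dependent cytokine genes. It had log2 levels of 6.92, 7.08 and 7.27 in E47 and 5.74, 5.51 and 5.64 in control samples (log2 fold change 1.46, SE 0.11, adjusted p = 0.00346). Its control levels lay near their array medians of 5.11 to 5.14. Without experiment 3 its adjusted p lay at the threshold, 0.05. Gata3 itself stood at -0.36 on the same scale (SE 0.10, adjusted p = 0.26), Ifng at -0.16 and Il13 at -0.20. The median of these 6 was -0.14, with 1 higher and 5 lower in E47. Any link of these values to the Zbtb32 level was not tested.

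No CD4 or CD8 lineage gene around ThPOK and LRF passed among 11, with 1 higher and 3 lower at an unadjusted p under 0.05. Nothing is drawn from these unadjusted counts. Cd8b1, a CD8 coreceptor chain repressed in the ThPOK-directed lineage, differed by 0.51 log2 units (SE 0.12, adjusted p = 0.185, and 0.0405 without experiment 1), and Gzmb, the granzyme B gene, by -0.28 (adjusted p = 0.269). Where 142 of all 18193 genes rose and 66 fell, in the PLZF program 1 of 11 genes rose, Il4, and 2 fell. These were the IL-18 receptor chains Il18rap (-0.73, SE 0.09, adjusted p = 0.0244) and Il18r1 (-0.70, SE 0.10, adjusted p = 0.0413). Without experiments 2 and 3 in turn the adjusted p was 0.166 and 0.168 for Il18rap and 0.074 and 0.22 for Il18r1, and without experiment 1 it was 0.0604 for Il18r1. Without the pairing it was 0.0896 and 0.861. Slamf1 (-0.42, adjusted p = 0.148), Rora (-0.51, adjusted p = 0.165) and Ccr6 (-0.22, adjusted p = 0.372) did not pass. Slamf1 did so among brighter genes (0.0484), with the mean over probe sets (0.0375) and with an intensity trend (0.0177), and Rora with the trend (0.0296).

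**Figure D4:**
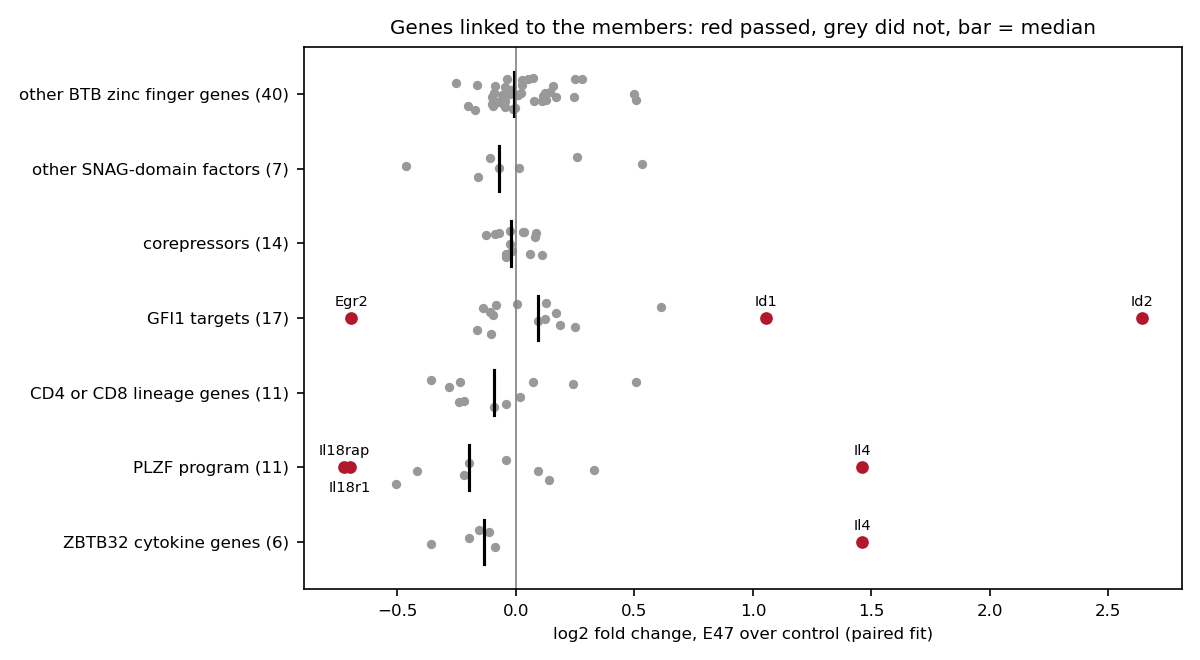
Log2 fold change of E47 over control (horizontal axis) for each measured gene of the 7 lists (rows, with the number measured), in red where the adjusted p was under 0.05, with a black bar at the list median. Id2 and Id1 lay at 2.64 and 1.06, Il4 at 1.46, and Egr2, Il18rap and Il18r1 between -0.73 and -0.69.

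Among 9095 genes brighter than the median gene, those with only a clone name or number were passed over. The others whose levels followed those of Gfi1 most closely were found by Pearson correlation of log2 levels over the 6 arrays. These arrays share the experiments and the groups, so the values are descriptions. For Gfi1 they were Camk2d, a calcium-dependent kinase subunit (r = 0.996), Dcaf8 (0.994), Lbr, the lamin B receptor (0.994), Rasa3, which restrains Ras and Rap1 (0.993), and Cerk, ceramide kinase (0.991). Between E47 and control, Rasa3 rose by 1.14 on the log2 scale (adjusted p = 0.00749) and Cerk by 0.54 (adjusted p = 0.0403). Camk2d (0.49, adjusted p = 0.067), Dcaf8 (0.21) and Lbr (0.22) did not pass.

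By the same rule, Zbtb32 was followed most closely by Gnai3, an inhibitory G protein subunit (r = 0.997), and by Tnfrsf4, which encodes the costimulatory receptor OX40 (0.991). Cluh (0.989), Myo1c, an unconventional myosin (0.985), and Arhgap39 (0.984) were next. None of these 5 passed between E47 and control, and the lowest adjusted p was 0.0752, for Tnfrsf4 (log2 fold change -0.44).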

How the data were processed

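RNA of 6 samples was measured on Affymetrix mouse arrays. For each array the authors deposited linear intensities, 1 for every probe set, made with RMA (version not given), per the submitters' processing notes. RMA equalises distributions between arrays, so a shift common to most genes would be removed. Log2 was taken here, and 64 Affymetrix control probe sets were left out. Array medians were 34.3 to 35.3.

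Of 45037 probe sets, 34945 had 1 symbol in the platform annotation, 932 had several and 9160 were unnamed here. Through Entrez numbers 34741 matched RefSeq. A gene was its probe set with the highest mean.

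Groups and experiment numbers came from the titles. The design text gives 1 set per experiment, so limma 3.58.1 (R 4.3.3, lmFit and eBayes, two-sided, Benjamini-Hochberg, threshold 0.05) had group and experiment as terms. Deviations from group means correlated at 0.28, 0.67 and 0.43 for same-numbered samples. Differently numbered samples of experiments 1 and 3 correlated at 0.25 and 0.18 and those involving experiment 2 at -0.52 to -0.34, so the pairing of 1 and 3 rests on the design text. The fit was tested on simulated data. The number of arrays limits precision.

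Alternatives changed the pairing, normalization, log offset, filter on dim probe sets, probe set per gene, variance model and experiments kept. The members, lists and alternatives were chosen with earlier results of these data known. From each list, up to 6 genes past the threshold and up to 3 others were named by lowest p. For Gfi1 and Zbtb32 the 5 genes most alike were named, passing over those with only a clone name or number. Genes named outside these rules (Bcl6, Zbtb20, Kdm1a, Cdkn1a and markers of other cells) were chosen after their values were seen.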

Additional observations from a re-analysis of the deposited data

How the results depend on the processing

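The Gfi1 difference lay between 1.27 and 1.63 and that of the bright Zbtb32 probe set between -1.07 and -1.003 in the alternatives run. Over the mean of its probe sets, an alternative added after seeing the data, Zbtb32 stood at -0.573, because the dim probe set differed by -0.10. With an experiment left out they ranged from 1.31 to 1.63 and from -1.07 to -1.02. The pairing decided the calls. With no replicate block, limma called 0 of the 6 members, 44 genes higher and 1 lower, 52 probe sets higher and 0 lower, and 0 linked genes lower. At an unadjusted p under 0.05 that fit had 1 member higher and 1 lower, 1494 probe sets lower and 5 linked genes lower. Of all genes, 494 were higher and 715 lower at that p. With a random block it called 0 members (1 higher and 1 lower unadjusted), 79 genes higher and 13 lower, 6 probe sets lower and 1 linked gene lower. The paired fit called 142 genes higher and 66 lower, 107 and 15 probe sets, and 3 and 3 linked genes. Leaving out an experiment gave 41 to 208 genes higher and 0 to 80 lower, 4 to 486 probe sets higher and 0 to 65 lower, 1 to 7 linked genes higher and 0 to 3 lower, and 1 to 2 members. Without experiment 3, 794 genes were lower at an unadjusted p under 0.05. Genes above the median alone gave 215 higher and 147 lower (41 probe sets lower), an intensity trend 333 and 214 (362 and 196 probe sets, 5 linked genes each way), and log2(value + 16) 106 genes and 25 probe sets lower. Differences between experiments were called for 582 genes, with 993, 1346 and 1814 under log2(value + 16), the brighter genes and the trend. That count was 0 to 1032 with an experiment left out, the 0 being without experiment 2, where 1209 genes were under an unadjusted p of 0.05. Of the members, 2 differed between experiments, 0 to 2 with an experiment left out, 3 among the brighter genes, where Zbtb7b joined (adjusted p = 0.0451), and 1 with the mean over probe sets, where Zbtb32 had an adjusted p of 0.268. The Tcf3 difference of -0.014 turned to 0.0028 with centring and 0.095 with the mean over probe sets, and ran from -0.049 to 0.046 (without experiment 2) with an experiment left out. The cause of these shifts was not tested, beyond the smaller number of arrays or genes where some were left out.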
